A study of Mus musculus with 34 samples.

Results

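The acid compartment of the cell was described here through 46 genes of lysosomes, chosen by name from 25853 genes in the tables. They comprise 15 genes of the vacuolar ATPase (V-ATPase), 10 genes of cathepsins and other lysosomal peptidases, 7 genes of lysosomal membrane proteins, 11 genes of glycosidases, lipases and other hydrolases, and 3 genes of cofactors of sphingolipid, sterol and granulin handling. Transcripts were counted in single cells sorted from mouse ear skin. Mast cells (MCs) came from 3 WT mice and 3 Tln1 KO mice, all male and 7 weeks old. Every one of these mice carried a Cre transgene under the Mcpt5 promoter, which is active in connective tissue MCs, and a YFP reporter that Cre switches on. All 6 were thus Mcpt5-cre+/- with R26 LSL:YFP. The Tln1 KO mice were also Tln1 fl/fl, so that Cre deletes *Tln1*, which encodes talin-1, a protein that activates integrins, whereas WT littermates were Tln1+/+. All were on an albino C57BL/6J background. MCs were gated as live CD45+ YFP+ cells without lineage markers. The mural cells, which are smooth muscle cells and pericytes of blood vessels, were CD45- GFP+ cells of Myh11-GFP mice, taken in 4 libraries (numbered 13 to 16) for which the labels give no number of mice. This sort is known to hold some fibroblasts as well.

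Lysosomes break down proteins, lipids and sugars at acid pH. The V-ATPase pumps the protons. Its V1 sector in the cytosol hydrolyses ATP, and its V0 sector in the membrane passes protons through. In MCs the secretory granules are related to lysosomes: they are acidified by the same pump, store serine proteases bound to proteoglycans, and release lysosomal hydrolases such as β-hexosaminidase when the cell degranulates. Many lysosomal genes carry an E-box that TFEB, TFE3 and MITF can bind, and MITF is also a factor that MCs need for their development.

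Cells with more than 1000 transcripts were summed per mouse or library, which left 2477 MCs (272 to 934 per mouse) and 330 Myh11-GFP cells (73 to 93 per library). The sums outside genes named Gm plus digits held 699494 to 5239235 transcripts per mouse and 221596 to 478723 per Myh11-GFP library. These Gm genes, mostly without a known product, took 14.2% to 58.0% of transcripts in the mice and 11.95% to 25.6% in the Myh11-GFP libraries. Each level below is therefore given in transcripts per 1000000 transcripts outside them (ppm). One tag was counted per molecule, so levels of different genes need no division by transcript length. A level gives a gene's share of a cell's transcripts, so a gene that falls and other genes that rise cannot be told apart. Defining markers went with the labels. The 12 mast cell markers summed to 69521 to 94251 ppm in the mice and to 40.6 to 55.8 in the Myh11-GFP libraries, and the 13 mural markers to 75.5 to 154 and to 21992 to 25010. No pair of cells had identical values. All tables listed the same 192 barcodes, of which each library used only a part. Tags of the targeted gene *Tln1* were at 451, 592 and 671 ppm in WT and at 556, 433 and 363 in Tln1 KO MCs. Whether these 3′ tags lie outside the deleted part is not given in the sources used here, so they do not check the genotype.

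The 46 genes together made up 6897 ± 674 ppm (SD, n = 6 mice) in MCs and 4673 ppm in the pooled Myh11-GFP cells, with 4573 to 5171 over the 4 libraries. Of these genes 45 reached the minimum of 10 transcripts in 3 mice or 20 over the Myh11-GFP libraries. In MCs, 20 of 45 were more than 2-fold higher (23.2% of the 9743 genes tested were), 5 were more than 2-fold lower (20.7% of all genes), and 20 lay within 2-fold. The median log2 ratio of MCs to Myh11-GFP cells was 0.93 for the lysosome genes and 0.09 for all genes. All 6 mice lay above all 4 libraries for 21 of the 45 genes (21.1% of all genes) and below them for 7 (20.6% of all genes). Both sorts differ in reporter, mouse strain, gate and plates as well as in cell type, and these cannot be told apart, and with the Myh11-GFP cells taken as 1 sample no test of the difference was made. With Gm genes kept in the total, 11 of 45 were over 2-fold higher and 10 over 2-fold lower. The median of all genes then moved to -0.43 and that of the lysosome genes to 0.35, so all genes shifted with the scale. Without cells in which macrophage markers made up 1% or more of transcripts, 18 of 45 were more than 2-fold higher and 5 lower. The median of the lysosome genes was then 0.77, against 0.09 for all genes.

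**Figure D1:**
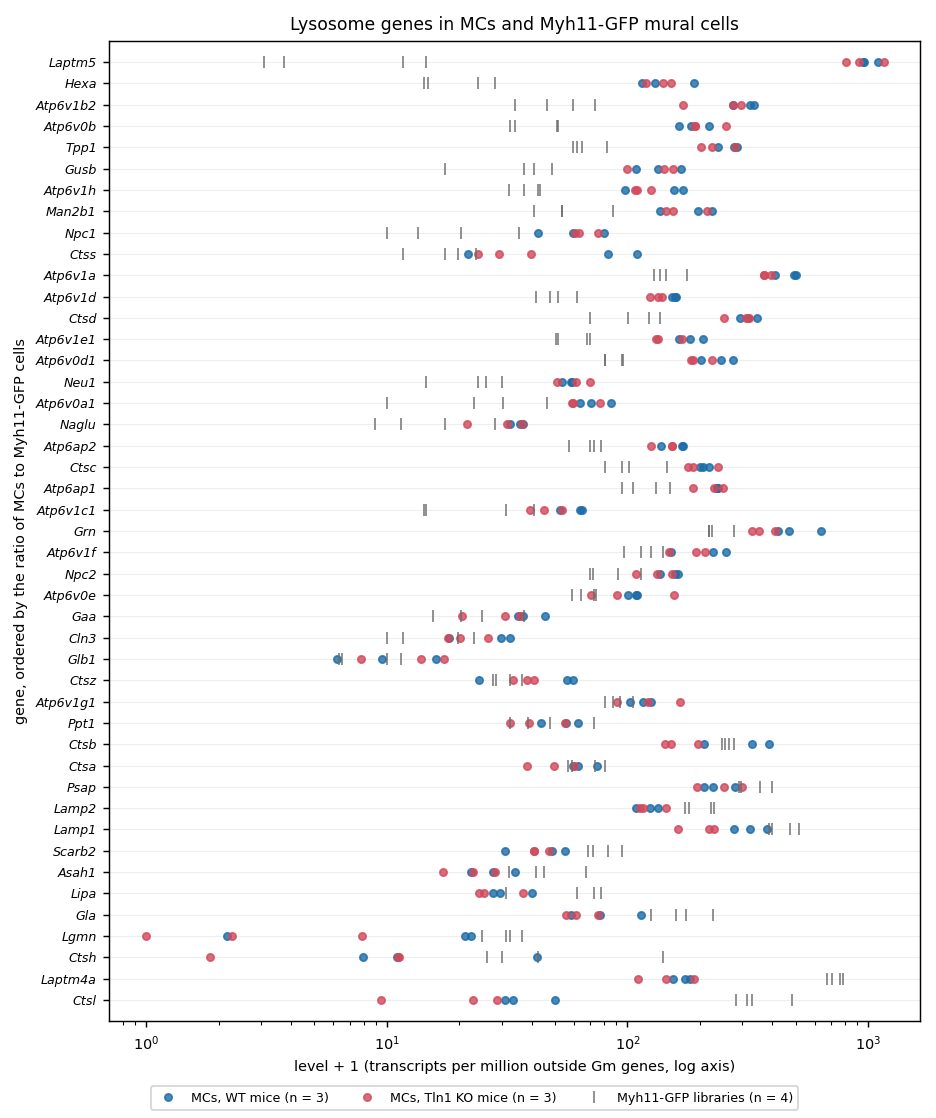
Level of each of the 45 lysosome genes that reached the minimum, in ppm plus 1 on a log axis, in the MCs of each WT mouse (blue), each Tln1 KO mouse (red) and in each Myh11-GFP library (grey bars), ordered by the ratio of MCs to Myh11-GFP cells. All 6 mice lie to the right of the 4 libraries in 21 genes, most of them in the upper rows, and to the left in 7 genes of the lower rows.

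The V-ATPase genes were the group with the most uniform difference. All 14 that reached the minimum were higher in MCs by mean level, as were 5212 of the 9743 genes tested. Of the 14, 9 were more than 2-fold higher (23.2% of all genes) and 0 more than 2-fold lower (20.7%). In 11 of 14 all 6 mice lay above all 4 libraries (21.1% of all genes). Summed, they stood at 2436, 2773 and 2709 ppm in the WT mice, 2418, 2229 and 2269.7 in the Tln1 KO mice, and 997, 947, 961 and 1038 in the Myh11-GFP libraries, which is 2.52 times as much in MCs. Every mouse was thus above every library.

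Among the V1 subunits, *Atp6v1a* (chr16:44085402-44139705), which encodes the catalytic A subunit, was the most abundant V-ATPase gene and the third most abundant of the 46. Gene positions are those of the GENCODE annotation of GRCm38, the build named mm10 in the labels. Its level was 409, 493 and 502 ppm in WT, 368, 393 and 369.8 in Tln1 KO MCs and 127, 143, 135 and 176 in the libraries, a log2 ratio of 1.58. Its partner in the hexamer that binds ATP, the B subunit gene *Atp6v1b2* (chr8:69088646-69113711), showed the largest ratio of the 15. It was at 274, 336 and 323 in WT, 295, 273 and 169 in Tln1 KO MCs and 58.5, 33.0, 45.1 and 72.2 in the libraries (log2 ratio 2.46, 5.49-fold; 95% Poisson interval of the pooled library level 39.7 to 63.7). Such intervals cover counting error only. Of the A and B subunit genes, which the assembled pump holds in equal numbers, *Atp6v1a* was thus at 422 and *Atp6v1b2* at 278 ppm in MCs on average, against 141 and 50.7 in the pooled Myh11-GFP cells. The stalk and regulatory subunits followed. *Atp6v1h*, needed for coupling and regulation, spanned 97.1 to 169 in the mice and 31.3 to 42.5 in the libraries, *Atp6v1d* of the central rotor 123 to 158 and 40.6 to 60.6, and *Atp6v1e1* of the outer stalks 131 to 206 and 49.6 to 68.8. The smallest ratio belonged to *Atp6v1g1*, another stalk subunit, whose mice (89.1 to 164) overlapped the libraries (79.6 to 105; log2 ratio 0.39). *Atp6v1f* (0.77) and *Atp6v1c1* (0.98) lay between them. One annotated processed pseudogene matched the last 400 bases of *Atp6v1f* over 156 bases at 99.4% identity, so its level is less certain than the others.

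In the V0 sector, *Atp6v0b* (chr4:117884326-117887333), a proteolipid of the rotating ring, was at 163, 183 and 217 in WT, 255, 189 and 189.8 in Tln1 KO MCs and 50.1, 33.0, 50.4 and 31.6 in the libraries, a 4.64-fold difference. *Atp6v0d1* (chr8:105524465-105566047), which joins the ring to the central stalk, reached 274, 243 and 200.2 in WT and 223, 187 and 183 in Tln1 KO MCs, above 94.0, 79.9, 79.6 and 94.8 in the libraries. The *Atp6v0a1* gene, one of the isoforms of the proton-conducting a subunit, was lower in level (57.9 to 84.4 against 9.03 to 45.1). Both accessory proteins of the pump were higher in MCs, *Atp6ap1* (chrX:74297097-74304721) at 236, 235 and 235 in WT, 247, 228 and 186 in Tln1 KO MCs and 104, 93.6, 130.1 and 149 in the libraries, and *Atp6ap2*, also known as the prorenin receptor, at 124 to 169 against 56.4 to 76.7. For *Atp6v0e* the mice (69.2 to 155) overlapped the libraries (57.8 to 73.1). The gene of the main ring proteolipid, *Atp6v0c* (chr17:24163866-24169702), had only 18 transcripts over the MCs of all 6 mice and 0 in the libraries, did not reach the minimum, and is read as not measured. Its last 400 bases matched no other annotated transcript at the thresholds used, and the cause of its low count was not tested.

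**Figure D2:**
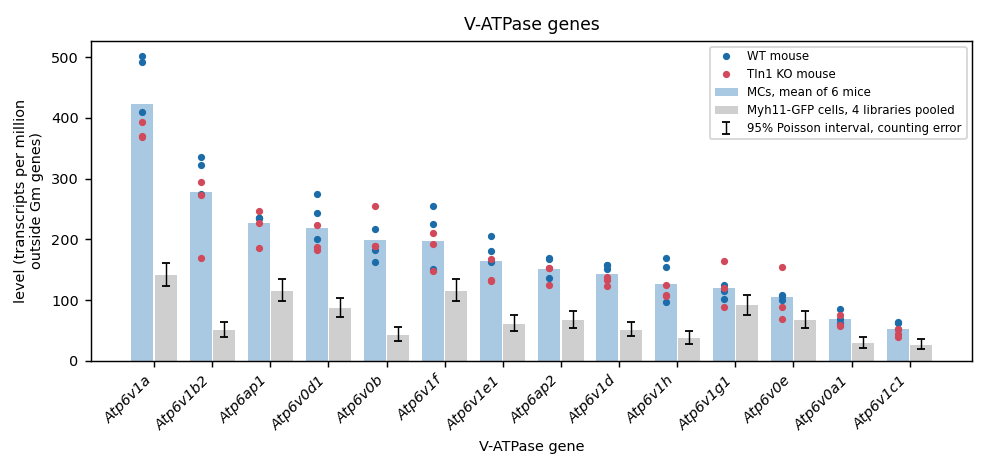
Level of 14 V-ATPase genes in ppm. Blue bars are the mean of the MCs of 6 mice with 1 point per mouse (WT blue, Tln1 KO red), and grey bars the 4 Myh11-GFP libraries pooled, with 95% Poisson intervals for counting error. Each MC bar is higher than its grey neighbour, from 422 against 141 for *Atp6v1a* to 52.1 against 26.4 for *Atp6v1c1*.

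Isoforms outside the 46 genes differed more sharply. *Atp6v0d2*, the second isoform of the d subunit and known from osteoclasts, was at 265, 304 and 232 in WT and 294, 256 and 231 in Tln1 KO MCs, a level like that of *Atp6v0d1* in the same cells, and had no transcript in any Myh11-GFP library. Read against 3 transcripts over the 4 libraries, it was at least 127-fold higher in MCs. *Atp6v0a2*, an isoform of the a subunit, was at 42.7 to 65.3 against 9.03 to 37.6. In the other direction, *Atp6v0e2* had 29 transcripts in the libraries and 2 in the MCs of all 6 mice, and *Tcirg1*, the a3 isoform, was at 5.23 to 12.9 in MCs and 18.8 to 36.1 in the libraries. MCs and Myh11-GFP cells thus held the d, e and a subunit isoforms in different proportions. The isoforms *Atp6v0a4*, *Atp6v1b1*, *Atp6v1c2* and *Atp6v1g2* did not reach the minimum.

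The promoters of the V-ATPase and other lysosome genes were read for the E-box that MITF and its relatives can bind, since the members share a role. RefSeq windows of 250 bases before to 50 after the start (GRCm38.p6) were matched for 38 of the 46 symbols. The 6 letters CACGTG, which read the same on both strands, stood in 14 of 38 promoters (36.8%), against 8.09% of 27025 symbols with a window and 12.2% of the 7412 among them that were tested in MCs against Myh11-GFP cells. The longer TCACGTGA, which contains them, stood in 7 of 38 (18.4%), against 1.12% and 2.31%. It was not confined to genes higher in MCs: it was found in 3 of 17 genes more than 2-fold higher, 1 of 4 more than 2-fold lower and 3 of 16 within 2-fold. A match describes letters and is not a bound site. The windows around the 7 matches are shown because they are the shared sequence of these promoters, with TCACGTGA in capitals and each read 5′ to 3′ along the gene. They lie at chr16:44139358-44139417 (minus strand), chr8:105566050-105566079 (minus), chr17:26676387-26676416 (plus), chr2:164833713-164833772 (plus), chr7:142387893-142387952 (minus), chr7:126583325-126583384 (minus) and chrX:134601200-134601255 (minus), in the order printed.
Atp6v1a: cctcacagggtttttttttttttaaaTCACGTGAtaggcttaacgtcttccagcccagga
Atp6v0d1: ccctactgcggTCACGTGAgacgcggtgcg
Atp6v0e: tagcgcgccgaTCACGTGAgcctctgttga
Ctsa: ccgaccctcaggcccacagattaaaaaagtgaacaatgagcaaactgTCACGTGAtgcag
Ctsd: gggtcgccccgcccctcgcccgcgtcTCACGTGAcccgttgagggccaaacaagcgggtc
Cln3: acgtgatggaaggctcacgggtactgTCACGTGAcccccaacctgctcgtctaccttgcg
Gla: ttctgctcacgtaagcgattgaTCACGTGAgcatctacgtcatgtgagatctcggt
Counted from the start, the first motif base stood at -132 in *Atp6v1a*, -4 in *Atp6v0d1*, 3 in *Atp6v0e*, -13 in *Ctsa*, -99 in *Ctsd*, -122 in *Cln3* and -228 in *Gla*. Of the factors, *Mitf* was at 213, 169.9 and 202 in WT, 185, 169.8 and 198 in Tln1 KO MCs and 27.2, 22.0, 18.6 and 22.6 in the libraries (8.27-fold). *Tfe3* overlapped (33.1 to 57.2 against 18.6 to 40.6), and *Tfeb* and *Tfec* did not reach the minimum.

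Cathepsins and other peptidases went in both directions. Of 10 genes, 4 were more than 2-fold higher in MCs (23.2% of all genes), 3 more than 2-fold lower (20.7%) and 3 within 2-fold. Their sum was 1009 to 1493 in the mice and 956 to 1359.7 in the libraries, which overlap. The sum therefore hides which enzymes make it up. *Tpp1* (chr7:105744811-105752235), which removes tripeptides from protein ends, had 277, 237 and 283 in WT, 279, 201 and 224 in Tln1 KO MCs and 58.5, 60.6, 63.7 and 81.2 in the libraries, 3.92-fold higher in MCs. *Ctsd* (chr7:142375911-142388038), an aspartic protease, had 292, 316 and 345 in WT, 251, 309 and 318 in Tln1 KO MCs and 136, 68.8, 122 and 99.3 in the libraries (2.78-fold). *Ctsc*, the dipeptidyl peptidase that activates serine proteases of granules, had 205, 199.6 and 217 in WT, 177, 236 and 186 in Tln1 KO MCs and 100.3, 93.6, 79.6 and 144 in the libraries (2.03-fold). In these 3 genes every mouse was above every library.

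The opposite held for *Ctsl* (chr13:64359337-64370890), a broad cysteine protease, which showed the largest difference towards mural cells among the 46 genes. It was at 32.4, 48.9 and 30.0 in WT, 21.8, 8.49 and 27.6 in Tln1 KO MCs and 328, 314, 282 and 484 in the libraries, 11.9-fold lower in MCs. Thinned to 1000 UMIs outside Gm genes per cell, 25.7% of Myh11-GFP cells held a *Ctsl* UMI, against 1.02% to 2.50% of MCs per mouse. The exact binomial 95% interval of 20.9% to 31.0% covers the sampling of cells only. The libraries spread wider, at 34.4%, 18.4%, 27.4% and 18.5%. *Ctsh*, an aminopeptidase, and *Lgmn*, which cuts after asparagine, were also more than 2-fold lower by mean level. *Ctsh* was at 6.93, 41.0 and 10.0 in WT, 10.3, 0.849 and 10.1 in Tln1 KO MCs and 25.1, 41.4, 29.2 and 140.1 in the libraries, where the mice overlap the libraries and library 16 stands apart. Its log2 ratio was -1.86, -1.24 without library 16 and -2.65 without WT mouse 2. *Lgmn* was at 1.16, 20.05 and 21.5 in WT, 1.28, 0 and 6.88 in Tln1 KO MCs and 35.5, 30.3, 23.9 and 31.6 in the libraries, and its mice stayed below. Its log2 ratio was -1.85, and -3.62 without the MC-sort cells that carried macrophage markers, which are described below. *Ctsb* (chr14:63122462-63145923), with 142 to 388 in the mice and 247 to 275 in the libraries, and *Ctsa*, with 37.2 to 74.0 and 55.8 to 79.4, were within 2-fold and overlapped. *Ctss* was 3.003-fold higher by mean level, with 20.8, 108 and 81.7 in WT, 28.2, 22.9 and 38.6 in Tln1 KO MCs and 18.8, 16.5, 10.6 and 22.6 in the libraries. WT mice 2 and 3 were far above the other 4 mice, and WT mouse 1 lay within the libraries. Without the MC-sort cells that carried macrophage markers, *Ctss* was 1.64-fold and *Ctsc* 1.91-fold higher, so both then lay within 2-fold. *Ctsz* was within 2-fold (23.1 to 58.6 against 26.5 to 35.5).

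Of the peptidases outside the 46, *Ctsg*, a granule serine protease, was at 447, 315 and 472 in WT and 393, 453 and 550.3 in Tln1 KO MCs. The libraries held no transcript of *Ctsg*. It was 210.4-fold higher read against 3 transcripts, and 171-fold against the upper end of the Poisson interval for 0. *Ctsk*, a collagen-degrading cysteine protease, was at 8.09, 38.5 and 38.7 in WT, 21.8, 1.70 and 1.15 in Tln1 KO MCs and 306, 182, 247 and 599 in the libraries, 16.6-fold lower in MCs. Fibroblast markers moved with it. Their sum was 97.6 to 8265 ppm in the mice and 14229 to 33991 in the libraries. It was highest in library 16, where *Ctsk*, *Ctsl* and *Ctsh* were highest too. Without cells of 1% macrophage, fibroblast or keratinocyte markers, the median log2 ratio of the lysosome genes was 1.13, against 0.93 with them. The log2 ratio of *Ctsl* moved by less than its SD over mice (0.85) at this setting. No setting left out cells with fibroblast markers alone, so their own part in these values was not tested. The cystatins, inhibitors of cysteine cathepsins, were split. *Cst3*, a secreted one, was 4.30-fold lower in MCs (129 to 498 against 854 to 1343). *Cst7*, which acts inside the endolysosomal compartment, was instead at 84.9 to 144 in MCs and at 0 in all libraries. Its level was 52.3-fold higher read against 3 transcripts, and 42.5-fold against the upper end of that interval.

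Lysosomal membrane proteins held both the largest difference among the 46 genes and several genes of the opposite sign. Of 7 genes, 2 were more than 2-fold higher in MCs (23.2% of all genes), 1 more than 2-fold lower (20.7%) and 4 within 2-fold. In 4 of the 7 all mice lay below all libraries (20.6% of all genes). *Laptm5* (chr4:130913125-130936141), a lysosomal membrane protein of blood cells, was the most abundant of the 46 genes in MCs. It stood at 956, 964 and 1100.3 in WT, 914, 1159 and 809 in Tln1 KO MCs and 2.09, 2.75, 10.6 and 13.5 in the libraries. Its log2 ratio was 7.30, or 157-fold (95% Poisson interval of the pooled library level 2.86 to 11.9). Among cells thinned to equal depth, 53.8% to 66.8% of MCs held a *Laptm5* UMI, as against 0 of 307 Myh11-GFP cells. This bears on UMIs at the thinned depth only, since 2.73% of Myh11-GFP cells held one before thinning. Its relative *Laptm4a* (chr12:8921664-8938742), found in many tissues, was at 180.3, 173 and 153 in WT, 187, 109.5 and 144 in Tln1 KO MCs and 705, 788, 762 and 673 in the libraries, 4.67-fold lower in MCs. The relatives thus differed in opposite directions between the sorts. Without *Laptm5* the other 45 genes summed to 5071 to 6766 in the mice and 4571 to 5157 in the libraries, and the lowest mouse then lay within the libraries.

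The abundant glycoproteins of the lysosomal membrane were lower in MCs. *Lamp1* (chr8:13159161-13175338) was at 277, 323 and 379 in WT, 218, 161 and 229 in Tln1 KO MCs and 399, 386, 515 and 474 in the libraries, and *Lamp2* at 133, 123 and 107 in WT, 112, 115 and 144 in Tln1 KO MCs and 179.7, 229, 173 and 221 in the libraries. *Scarb2*, another glycoprotein of this membrane, was at 30.0 to 54.0 against 67.7 to 93.6. These 3 differences were under 2-fold, with every mouse below every library. *Npc1*, which exports cholesterol, was higher in MCs (41.6 to 78.6 against 9.03 to 34.5, log2 ratio 1.68), and *Cln3* overlapped (17.0 to 31.4 against 9.03 to 22.0). Outside the 46, *Cd63*, a tetraspanin of lysosomes and MC granules, was at 943 to 1326 against 563 to 660.2.

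Among 11 glycosidases, lipases and other hydrolases, 5 were more than 2-fold higher in MCs (23.2% of all genes) and 1 more than 2-fold lower (20.7%). *Hexa* (chr9:59539540-59565109) encodes the α subunit of β-hexosaminidase, whose release is the usual readout of degranulation. It was at 114, 129 and 187 in WT, 149.98, 118 and 139 in Tln1 KO MCs and 23.0, 13.8, 13.3 and 27.1 in the libraries, 7.45-fold higher (Poisson interval of the pooled level 12.4 to 27.3). *Gm2a*, outside the 46, the activator that presents gangliosides to the enzyme, was at 116 to 174 against 20.9 to 31.9 (5.35-fold), also without overlap. *Gusb* (chr5:129989011-130003049), or β-glucuronidase, had 166, 133 and 107 in WT, 154, 141 and 98.9 in Tln1 KO MCs and 39.7, 16.5, 47.8 and 36.1 in the libraries (3.77-fold). *Man2b1*, an α-mannosidase, was at 135 to 224 against 39.8 to 85.8, and the sialidase *Neu1* at 50.1 to 69.1 against 13.5 to 29.2, both without overlap. *Naglu*, which degrades heparan sulfate, was 2.26-fold higher by mean level but its mice (20.5 to 35.7) overlapped the libraries (7.96 to 27.1).

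*Gla* (chrX:134588149-134601125), the α-galactosidase that is missing in Fabry disease, was the hydrolase on the other side. Its level was 113, 75.8 and 57.2 in WT, 60.2, 74.7 and 54.4 in Tln1 KO MCs and 173, 226, 125 and 158 in the libraries, 2.36-fold lower with no overlap. The acid lipase gene *Lipa* just missed the 2-fold limit (26.6, 39.2 and 28.6 in WT, 24.4, 35.6 and 23.1 in Tln1 KO MCs, 60.6, 30.3, 71.7 and 76.7 in the libraries, 1.97-fold lower) and overlapped. Just short of the limit on the other side were *Atp6ap1* and *Atp6v1c1* (log2 ratios 0.98 and 0.98), and just past it was *Ctsc* (1.02). *Asah1*, *Ppt1*, *Glb1* and *Gaa* had log2 ratios of -0.89, -0.03, 0.50 and 0.62, each with overlap. In the wider list of 18 hydrolases, 16 reached the minimum. Of these, 8 were more than 2-fold higher in MCs (23.2% of all genes) and 0 more than 2-fold lower (20.7%). The ratios included those of *Galc*, which degrades galactosylceramide (32.9 to 53.5 against 3 transcripts over the libraries, 22.3-fold with a counting interval of 7.62 to 108), of the acid nuclease gene *Dnase2a* (9.62-fold) and of *Sgsh* (8.20-fold) and *Ids* (4.47-fold), a sulfamidase and a sulfatase of heparan sulfate breakdown.

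Of the 3 cofactor genes none passed 2-fold. *Grn* (chr11:102430315-102437048), which encodes progranulin, was the second most abundant of the 46, at 470.4, 421 and 635 in WT, 408, 352 and 329 in Tln1 KO MCs and 224, 218, 218 and 276 in the libraries. Every mouse was above every library. *Psap* (chr10:60277627-60302597), the precursor of the saposins, was at 279.7, 227 and 207 in WT, 249.97, 194 and 298 in Tln1 KO MCs and 353, 289, 295 and 398 in the libraries, which overlap, and *Npc2*, the soluble partner of *Npc1*, at 108 to 162 against 69.0 to 113. Genes of the route by which hydrolases reach the lysosome went in both directions. *Gnptab*, a subunit of the enzyme that builds the mannose 6-phosphate tag, was 6.58-fold higher in MCs (96.7 to 185 against 13.5 to 21.2). The sorting receptors *Igf2r* and *Sort1* were 24.8-fold and 41.8-fold lower (1.70 to 6.41 against 72.2 to 113, and 1.43 to 4.62 against 99.3 to 130.1), and the other mannose 6-phosphate receptor, *M6pr*, overlapped (78.2 to 157 against 104 to 189.6).

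Single cells carried few of these transcripts. After thinning each cell to 1000 UMIs outside Gm genes, which left 2195 of 2477 MCs and 307 of 330 Myh11-GFP cells, an MC (median of 3689 UMIs before thinning) held a UMI of 5.52 of the 46 genes on average and a Myh11-GFP cell (median of 4082) of 3.74. The means per mouse were 5.62, 6.19 and 6.01 in WT and 5.45, 4.69 and 5.50 in Tln1 KO mice, and those per library 4.08, 3.14, 3.85 and 3.85, so no mouse overlapped the libraries. A UMI of any V-ATPase gene was seen in 81.0% to 93.5% of thinned MCs per mouse and in 50.0% to 66.7% of Myh11-GFP cells per library. *Atp6v1a* was seen in 29.0% to 43.1% of MCs and 12.4% of Myh11-GFP cells, *Hexa* in 11.5% to 15.3% and 1.30%, and *Laptm4a* in 8.41% to 17.9% and 46.3%. Before thinning, the shares for *Atp6v1a* were 50.0% to 74.7% and 36.1%, for *Laptm5* 68.9% to 91.8% and 2.73%, and for *Ctsl* 2.54% to 6.00% and 50.0%. As a measure of stray RNA, the MC protease gene *Cpa3* was seen in 98.1% to 100% of thinned MCs and 0 of 307 Myh11-GFP cells. The mural gene *Rgs5* was seen in 0% to 0.763% of MCs and 90.9% of Myh11-GFP cells. The MC receptor gene *Kit* was seen in 52.7% to 66.2% and 2.93%. *Kit* had 24 transcripts in the libraries and *Cpa3* 1, although their means in MCs were 1212 and 13501 ppm. Whether the *Kit* transcripts in the libraries were stray RNA was not tested. The shares of *Ctsl* in MCs were above those of *Rgs5*.

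Between genotypes no lysosome gene passed the test. In a limma fit over 8602 genes, 44 of the 46 reached the minimum of 10 transcripts in 3 mice (all but *Atp6v0c* and *Ctsh*), and 0 of them passed an adjusted p of 0.05 in either direction, as did 0.0% of all genes. The lowest adjusted p among the 44 was 0.72, and with voom weights the count was 0 as well. At an unadjusted p of 0.05, 4 of the 44 were lower in Tln1 KO MCs (3.01% of all genes were) and 0 higher (2.77% of all genes). By the sign of the fitted value 37 of 44 were lower and 7 higher, against 53.7% lower over all genes, with a median log2 change of -0.21 against -0.03. How many of the lysosome genes lay below 0 depended on scale, while their median stayed below that of all genes at the scales given here. With Gm genes in the total, 21 of 44 were lower and the median of the 44 was 0.01, while the median of all genes moved to 0.18 and 28.0% of all genes were lower. With trimmed mean factors, 33 of 44 were lower, against 46% of all genes, and the medians were -0.15 and 0.03. The Gm share was 14.2% in Tln1 KO mouse 3 and 36.7% to 58.0% in the other 5 mice. Levels of WT and Tln1 KO MCs also enter the comparison with Myh11-GFP cells above, so the comparisons are not independent.

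**Figure D3:**
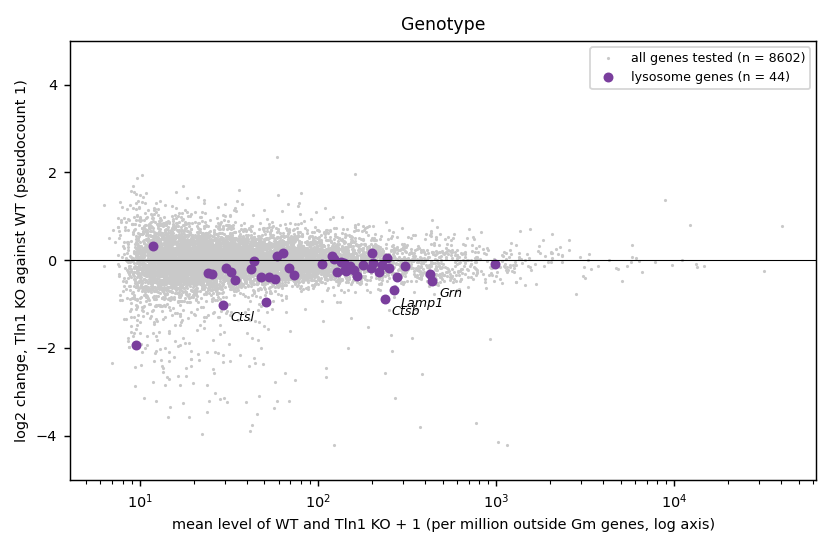
Log2 change in Tln1 KO against WT MCs, with a pseudocount of 1, for 8602 genes (grey) and 44 lysosome genes (purple), over the mean level of both genotypes plus 1 on a log axis. Most purple points lie below 0 (37 of 44), and the 4 named ones had an unadjusted p under 0.05.

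Per mouse, the 46 genes summed to 6933, 7503 and 7867 ppm in WT and 6616, 6229 and 6236 in Tln1 KO MCs, that is 7434 ± 471 and 6360.5 ± 221 (SD, n = 3 each), without overlap. Each sum was lower in Tln1 KO by the mean. The V-ATPase genes summed to 2639 ± 179 and 2306 ± 99.1, the cathepsins and other peptidases to 1350.01 ± 185 and 1033 ± 22.4, both without overlap. Membrane proteins (1752 and 1562), hydrolases (795 and 719) and cofactors (898 and 741, means of 3 mice) followed, and the last 2 overlapped between genotypes. Without the 42 cells in which macrophage markers made up 1% or more of transcripts, the sum of all 46 was 6938, 7023 and 7398 in WT and 6619, 6234 and 6162 in Tln1 KO MCs. In Tln1 KO mouse 3, library 8 held 4383 ppm of these genes and 13461 of keratinocyte markers, whereas the 30 MC libraries had a median of 6669 and 146. Without that library the mouse's sum was 6627.

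**Figure D4:**
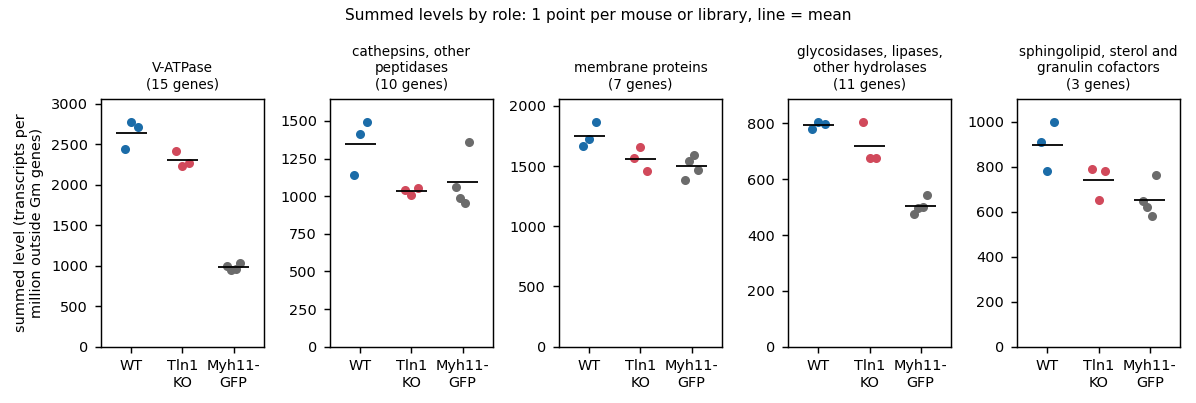
Summed level of the 5 role groups, in ppm, with 1 point per mouse or Myh11-GFP library and a line at the mean of each group. The V-ATPase genes in MCs (2229 to 2773) lie far above the libraries (947 to 1038), while the ranges of cathepsins and other peptidases overlap between MCs and libraries.

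The 4 genes with an unadjusted p under 0.05 were *Ctsb*, *Lamp1*, *Ctsl* and *Grn*. *Ctsb* was at 208, 329.8 and 388 in WT and 196, 142 and 149.98 in Tln1 KO MCs (308 ± 91.7 and 163 ± 29.3, SD), a log2 change of -0.89 with a standard error of 0.25 and an adjusted p of 0.72. *Lamp1* was at 277, 323 and 379 in WT and 218, 161 and 229 in Tln1 KO MCs, with -0.69 ± 0.21 (adjusted p = 0.75). Both *Ctsl*, with 32.4, 48.9 and 30.0 in WT and 21.8, 8.49 and 27.6 in Tln1 KO MCs (log2 change -1.02), and *Grn*, with 470.4, 421 and 635 in WT and 408, 352 and 329 in Tln1 KO MCs (-0.47), had an adjusted p of 0.86. In these genes and in *Atp6v1a* (-0.31) and *Atp6v1d* (-0.24), all 3 Tln1 KO mice lay below all 3 WT mice. That makes 6 of 44 genes, against 6.31% of all genes tested, and 0 of 44 the other way, against 5.34%. The most abundant gene, *Laptm5*, overlapped, with a log2 change of -0.08 ± 0.20 (limma standard error), as did *Hexa* (-0.06 ± 0.23), *Ctsd* (-0.12 ± 0.18) and *Psap* (0.04 ± 0.22).

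The labels give no batch. By the profile of the few transcripts in barcodes that a library did not use, WT mouse 1 went with Tln1 KO mouse 1, WT mice 2 and 3 went with Tln1 KO mouse 2, and Tln1 KO mouse 3 stood alone. Within the first set 27 of 44 genes were lower in Tln1 KO, with a median log2 difference of -0.12. Within the second set 37 of 44 were lower, with -0.33, and 20 were lower in both sets. The shares of all genes that were lower within the sets were not computed, so these counts do not set the lysosome genes apart from other genes. *Ctsb* differed by -0.08 and -1.33 in the 2 sets, *Lamp1* by -0.35 and -1.11, *Grn* by -0.21 and -0.56, and *Ctsl* by -0.55 and -2.05. The direction of these 4 was shared, and the size in the first set was small for *Ctsb*. The set of Tln1 KO mouse 3 holds 1 genotype and gives no value.

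Macrophage markers moved with several cathepsins. All 14 markers had transcripts in the MC sort, *C1qa*, *Pf4*, *Mrc1*, *Cd209a* and *Cx3cr1* being at 0 in at least 1 mouse. They summed to 306, 5146 and 1744 ppm in the WT mice and 285, 174 and 963 in the Tln1 KO mice. *Cd74*, *H2-Aa*, *H2-Ab1* and *H2-Eb1* stood at 1084, 1429, 967 and 990 in WT mouse 2 and at 182, 243, 210 and 105 in WT mouse 3. By contrast, *C1qa*, *C1qb*, *C1qc*, *Pf4*, *Mrc1* and *Csf1r* were higher in WT mouse 3 (*C1qb* 318 against 227). *Adgre1*, *Cd209a*, *Ccr2* and *Cx3cr1* were not. The order of these mice thus depended on the marker. Of the 42 cells above the 1% limit, 22 came from WT mouse 2. In those 42 cells, which held 2.07% of the MC transcripts outside Gm genes, *Ctsb* stood at 1786 ppm, against 162 in the other cells. *Lamp1* stood at 693 against 236 and *Grn* at 1109.8 against 367. *Ctss*, known from antigen-presenting cells, stood at 829 against 28.9, *Lgmn* at 244 against 2.68, and *Ctsh* at 136 against 9.70. The V-ATPase genes differed less and in both directions, from *Atp6ap2* at 297 against 136 and *Atp6v1b2* at 356 against 228 to *Atp6v1e1* at 122 against 167, with *Atp6v1a* at 395 against 399. *Laptm5* stood at 1009 against 908. These cells held 65.8% of all *Lgmn* transcripts of the MC libraries, 37.8% of *Ctss* and 18.95% of *Ctsb*, but 5.85% of *Lamp1* and 6.01% of *Grn*.

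Without them, *Ctsb* was at 207, 213 and 207 in WT and 196, 141 and 137 in Tln1 KO MCs, so that the WT mice came together and the groups still did not overlap. *Lamp1* also kept apart (278, 299.8 and 316 in WT and 218, 162 and 226 in Tln1 KO MCs). *Grn* (471, 379 and 512 in WT and 408, 352 and 327 in Tln1 KO MCs) and *Ctsl* (32.4, 45.1 and 11.2 in WT and 21.8, 8.504 and 26.2 in Tln1 KO MCs) then overlapped. *Ctss* became 20.8, 43.2 and 19.2 in WT and 28.2, 23.0 and 29.8 in Tln1 KO MCs, and *Lgmn* 1.16, 2.76 and 6.41 in WT and 1.28, 0 and 3.29 in Tln1 KO MCs. At that setting 31 of 43 lysosome genes were lower in Tln1 KO, against 53.1% of all genes. In limma 0 passed the adjusted threshold, and 1 was lower at an unadjusted p of 0.05. Leaving out cells with 1% of fibroblast or keratinocyte markers as well gave log2 changes of -0.38 for *Ctsb*, -0.56 for *Lamp1*, -0.34 for *Grn* and -0.04 for *Ctsl*. Fibroblast markers were also unequal, at 2005, 8265 and 5406 ppm in WT and 1051, 197 and 97.6 in Tln1 KO MCs, and their further part in these differences was not tested.

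**Figure D5:**
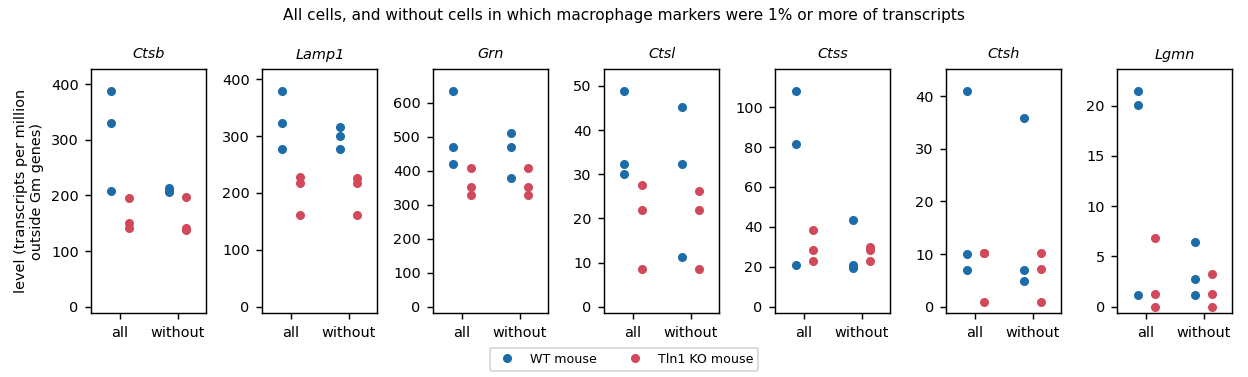
Levels of 7 genes in ppm, with 1 point per mouse (WT blue, Tln1 KO red), over all MCs and without the 42 cells in which macrophage markers were at 1% or more. *Ctsb* and *Lamp1* stay apart between genotypes, while the high WT values of *Ctss* and *Lgmn* drop towards those of the other mice.

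Outside the 46 genes, the same lean was not seen in each list. Of 16 further hydrolases 12 were lower in Tln1 KO by value and 4 higher. Of 10 further membrane proteins 4 were lower and 6 higher, against 53.7% lower over all genes. None of the 40 genes of the other lists in the fit passed an adjusted p of 0.05 in limma. The 2 lowest unadjusted p values were those of *Ctsk* (8.09, 38.5 and 38.7 in WT and 21.8, 1.70 and 1.15 in Tln1 KO MCs) and *Cst3* (243, 498 and 277 in WT and 129, 149 and 297 in Tln1 KO MCs). *Ctsk* and *Cst3* were also higher in the cells with macrophage markers than in the other cells, 87.8 against 8.78 and 1741 against 253 ppm. Those cells held 17.5% of the *Ctsk* and 12.7% of the *Cst3* transcripts of the MC libraries. Fibroblast markers were unequal between the mice as well, as given above, and their part in these 2 genes was not tested. *Mitf*, *Atp6v0d2* and *Ctsg* overlapped between genotypes, with log2 changes of -0.08, -0.03 and 0.19.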

How the data were processed

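Cells were sorted into plates, sequenced by mCEL-Seq2 and mapped by the authors (BWA 0.6.2-r126, mm10, ENCODE gene models; reads matching several loci were discarded). The deposited tables hold transcripts per gene and cell, which the authors estimated from unique molecular identifiers (UMIs) by correcting for collisions among 4096 sequences; all values went back to whole UMIs within 1e-06. Cells over 1000 transcripts were kept and summed per mouse (number in the label) or Myh11-GFP library. Levels are transcripts per 1000000 transcripts outside Gm genes. Genes with 10 or more transcripts in 3 mice were compared between genotypes with limma 3.58.1 (trend) on log2(level + 1), with Benjamini-Hochberg adjustment at 0.05. A count test had been planned, but the values are corrected estimates, so limma took its place. Fits were checked on simulated data. Against Myh11-GFP cells, taken as 1 sample, a gene was called past 2-fold, and a sum of 0 was read as 3 transcripts. Nothing in the sources used here says how the Myh11-GFP libraries divide over animals. Named genes were the 46 members, any gene of the fixed lists past a threshold and the markers. Members and lists were chosen with earlier results of these data known. The alternatives without cells in unused barcodes, with voom weights, with pseudocounts of 0.5 and 5, with Myh11-GFP cells of 1% mural markers, without each mouse against Myh11-GFP cells, and without the library highest in keratinocyte markers were chosen after seeing the data.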

Additional observations from a re-analysis of the deposited data

Results flagged for a closer look

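Library 16 of the Myh11-GFP cells stood apart from the other 3 libraries in 2 of 45 lysosome genes examined, a number that chance can give since about 1 in 20 such groups is flagged without cause. *Ctsh* was at 140.1 ppm in library 16 and at 25.1 to 41.4 in the other 3, a gap of 0.858 of the whole range. *Grn* was at 275.6 in library 16 and at 218 to 224 in the other 3, a gap of 0.896 of the range. In the same library 4.11% of cells had macrophage markers at 1% or more of transcripts, against 0% in the other 3, and fibroblast markers were highest, at 33991 ppm. Leaving out the cells with macrophage markers took library 16 from 73 to 70 cells. Without these cells, the pooled Myh11-GFP level of *Ctsh* was 48.00 ppm, against 47.97 with them. That of *Grn* was 228.7, against 228.5 with them. So few cells can hardly move a level pooled over the libraries, and library 16 was not computed alone without them. The part of macrophages or fibroblasts in the levels of library 16 was therefore not tested.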

How the results depend on the processing

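Per 1000000 of all transcripts, Gm genes included, 42 genes were lower and 3 higher in Tln1 KO MCs at an adjusted p of 0.05 in limma (0 and 0 otherwise), 21 lysosome genes were lower by value, their median log2 change was 0.0086 and that of their sum 0.039. The median of all genes between genotypes was 0.18 on that scale. Against Myh11-GFP cells the same scale gave 1487 genes and 11 lysosome genes more than 2-fold higher. It gave 10 lysosome genes more than 2-fold lower, with a median of 0.35 for the lysosome genes against -0.43 for all genes. With the sets of mice alike in their unused barcodes as a block, 4 genes were lower in Tln1 KO. Leaving out 1 mouse gave 0 to 15 genes lower (1 without WT mouse 1, 15 without Tln1 KO mouse 1), a median of the lysosome genes of -0.26 to -0.13 and a summed log2 ratio of -0.27 to -0.18; 0 lysosome genes passed at any setting run. At an unadjusted p of 0.05, 2 to 9 were lower when a mouse was left out (9 without WT mouse 1). Against Myh11-GFP cells, a limit of 1.5-fold gave 10 genes lower and one of 3-fold 10 higher, and equal weight of cells gave a median of 0.70. Leaving out 1 mouse or library gave 19 to 22 higher, 5 to 6 lower and a median of 0.75 to 0.99. The cause of these shifts was not tested.

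Mouse numbers did not pair the samples: same-number correlations of deviations over 8602 genes were 0.16, -0.21 and -0.27. With the replicate block 0 genes passed in either direction, the median of the lysosome genes stayed at -0.21, and 2 of them were lower at an unadjusted p of 0.05 against 4 without it. The planned count test (edgeR) was not run, since the deposited values are corrected estimates. With the recovered whole UMIs in their place, limma gave a median log2 change of -0.21 for the lysosome genes.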
